A study of Mus musculus with 34 samples.

Results

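The genes described here build the tail of the sperm: the axoneme, the accessory fibres and sheaths around it, the CatSper calcium channel in its membrane, and a few factors that assemble it. They were taken from a given list of 37 mouse gene symbols, chosen for what the proteins do but with earlier results of these data known. A probe could be matched to 30 of the 37, out of 33370 gene names on the array, 16398 of them with a symbol. No probe was matched to Dnah1, Dnah17, Tekt3, Tekt4, Tekt5, Fscb or Spata18, so these 7 have no value here. All 30 were well above background in whole testes and in every tubule group.

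The series measured gene expression in mouse testis material on 34 one-colour arrays, in 17 groups of 2 biological duplicates, to follow how gene expression changes with the stage of the tubule and with retinoic acid. All mice were C57BL6/j of 6 to 8 weeks. Per the labels, 24 arrays held seminiferous tubules divided by stage into I-III, IV-VI, VII-VIII (VI-VIII in the titles) and finally IX-XII, either untreated or taken 5 days after a lentivirus was injected into the adult testis. The virus carried the fluorescent control protein Venus or a dominant negative receptor for retinoic acid, RAR alpha, named dnRARa. The labels do not name the cells infected or the promoter used. The other 10 arrays held whole testes, FACS-sorted Sertoli cells of wild-type (WT) mice or of mice without Nanos3 (N3KO), and primary Sertoli cultures given vehicle or retinoic acid (RA), the latter at 1 mM, as the labels write it, and for 24 hours. The labels give no marker for the sort. Each tubule sample therefore holds Sertoli cells and several generations of germ cells together.

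A flagellum is built while the spermatid is still in the seminiferous epithelium. An axoneme of microtubule doublets around a central pair is assembled first, outer dense fibres and the fibrous sheath are laid around it later, and mitochondria wrap the midpiece last. Before sperm are released, in stage VIII, a tubule segment carries an older and a younger generation of spermatids, and after release only the younger one, which then starts to elongate. Sertoli cells make no flagellum, but some axonemal and transport proteins also serve ordinary cilia.

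The promoters of 5 members are printed because the results below turn on them. Catsper3, Spag6 and Tekt2 were lowest in stages IX-XII in all arms, and Odf3 and Ropn1 were the members whose level differed between dnRARa and Venus within a stage. Each line gives the 250 bases before the annotated transcription start, 5′ to 3′ on the gene's strand, from RefSeq on build GRCm38.p6. Capitals mark GTTGCC, the half-site of the X-box that RFX factors of ciliated cells bind, and AGGTCA, the half-site bound by retinoic acid receptors and other nuclear receptors, on either strand. The positions are chr13:55784329-55784578 (plus strand) for Catsper3, chr2:18698772-18699021 (plus) for Spag6, chr4:126325689-126325938 (minus) for Tekt2, chr7:140847666-140847915 (plus) for Odf3 and chr16:34650961-34651210 (plus) for Ropn1. Tekt2 has 3 annotated starts in the table, of which this is 1.
Catsper3: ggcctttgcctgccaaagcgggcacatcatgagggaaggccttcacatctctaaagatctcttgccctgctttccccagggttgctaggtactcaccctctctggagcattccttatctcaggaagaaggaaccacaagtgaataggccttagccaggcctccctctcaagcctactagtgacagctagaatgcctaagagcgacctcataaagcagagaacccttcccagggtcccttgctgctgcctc
Spag6: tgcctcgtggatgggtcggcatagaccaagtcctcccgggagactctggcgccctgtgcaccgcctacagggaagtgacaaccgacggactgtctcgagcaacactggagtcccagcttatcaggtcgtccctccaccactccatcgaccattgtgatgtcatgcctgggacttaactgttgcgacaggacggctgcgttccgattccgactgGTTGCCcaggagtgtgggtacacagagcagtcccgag
Tekt2: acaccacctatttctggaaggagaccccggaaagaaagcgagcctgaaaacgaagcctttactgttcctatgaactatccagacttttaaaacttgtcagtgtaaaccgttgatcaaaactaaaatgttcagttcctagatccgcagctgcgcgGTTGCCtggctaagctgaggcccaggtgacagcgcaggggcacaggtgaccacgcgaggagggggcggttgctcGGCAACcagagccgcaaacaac
Odf3: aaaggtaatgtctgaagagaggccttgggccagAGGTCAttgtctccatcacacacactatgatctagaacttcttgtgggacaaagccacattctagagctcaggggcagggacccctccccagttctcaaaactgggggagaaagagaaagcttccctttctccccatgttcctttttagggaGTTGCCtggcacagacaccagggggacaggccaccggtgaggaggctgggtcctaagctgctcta
Ropn1: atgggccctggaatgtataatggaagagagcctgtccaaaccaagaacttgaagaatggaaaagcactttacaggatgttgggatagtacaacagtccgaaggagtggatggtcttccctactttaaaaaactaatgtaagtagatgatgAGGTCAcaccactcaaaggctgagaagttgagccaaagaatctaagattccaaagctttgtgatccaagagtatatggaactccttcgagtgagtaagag

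Promoters of this length were held for 32 of the 37 members and for 27025 mouse genes. GTTGCC stood in 9 of the 32 (28.1%) and in 10.5% of all promoters: in Spag6, Spag16, Cfap20, Tekt1, Tekt2, Mns1, Odf3, Ropn1l and Tcp11. Spag16, Tekt1, Tekt2 and Tcp11 carried it on both strands. AGGTCA was found in Odf3, 217 to 212 bases before the start, and in Ropn1, 100 to 95 bases before it, which is 2 of 32 (6.25%) against 13.8% of all promoters. TGACGT, the core of the site bound by CREB and CREM, was found in 2 members (6.25%) against 6.56% of all. The full palindrome TGACGTCA, which contains TGACGT, was found in 0 members and in 1.62% of all. These are letter matches on either strand and not measured binding.

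Levels are given as log2 of the background-subtracted signal minus the 75th percentile of the same array, so a level of 0 is the brightness of the 75th percentile spot and a difference of 1 is a doubling. Levels of different genes come from different probes and were not compared with each other. Differences between groups were tested with limma and called at a Benjamini-Hochberg adjusted p under 0.05 over all genes tested. The 2 arrays in each group limit the precision, and from 54.89% to 74.42% of the spots on an array were well above background. Nanos3 stood at 1.30 and 1.28 in whole testes, -3.19 and -4.41 in sorted WT cells and -7.03 and -7.19 in N3KO cells, where its probe was not well above background. The Rara probe read 0.65 higher (SE 0.15, limma adjusted p = 0.0109) in dnRARa than in Venus tubules over all stages; whether it also reads the viral transcript is not given in the sources used here. Stra8, a retinoic acid target, was 3.91 higher (SE 0.11, limma adjusted p = 3.03e-05) in RA-treated than in vehicle-treated Sertoli cells.

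In untreated tubules, 20 of the 30 members changed with stage, beside 68% of all genes tested, so that stage dependence as such was about as common among flagellum genes as among genes at large. The members moved in different directions. The largest swings were in the CatSper genes Catsper1, Catsper3 and Catsper4, in Spag6 of the central pair and in Cabyr of the fibrous sheath, all lowest in stages IX-XII. Smaller swings with the lowest level in stages IV-VI or VII-VIII were found in Catsper2, Mns1, Dnah8, Dnaic1, Rsph1 and Cfap20, among others. In pieces of tubule, fewer cells of a type and less RNA per cell cannot be told apart. By role, the stage test called 4 of 4 CatSper genes, 4 of 5 central pair, spoke and junction genes, 4 of 5 fibrous sheath genes, 2 of 3 doublet genes, 2 of 4 dynein genes, 2 of 4 outer dense fibre genes, 2 of 4 assembly and transport genes, and 0 of 1 mitochondrial sheath gene.

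**Figure D1:**
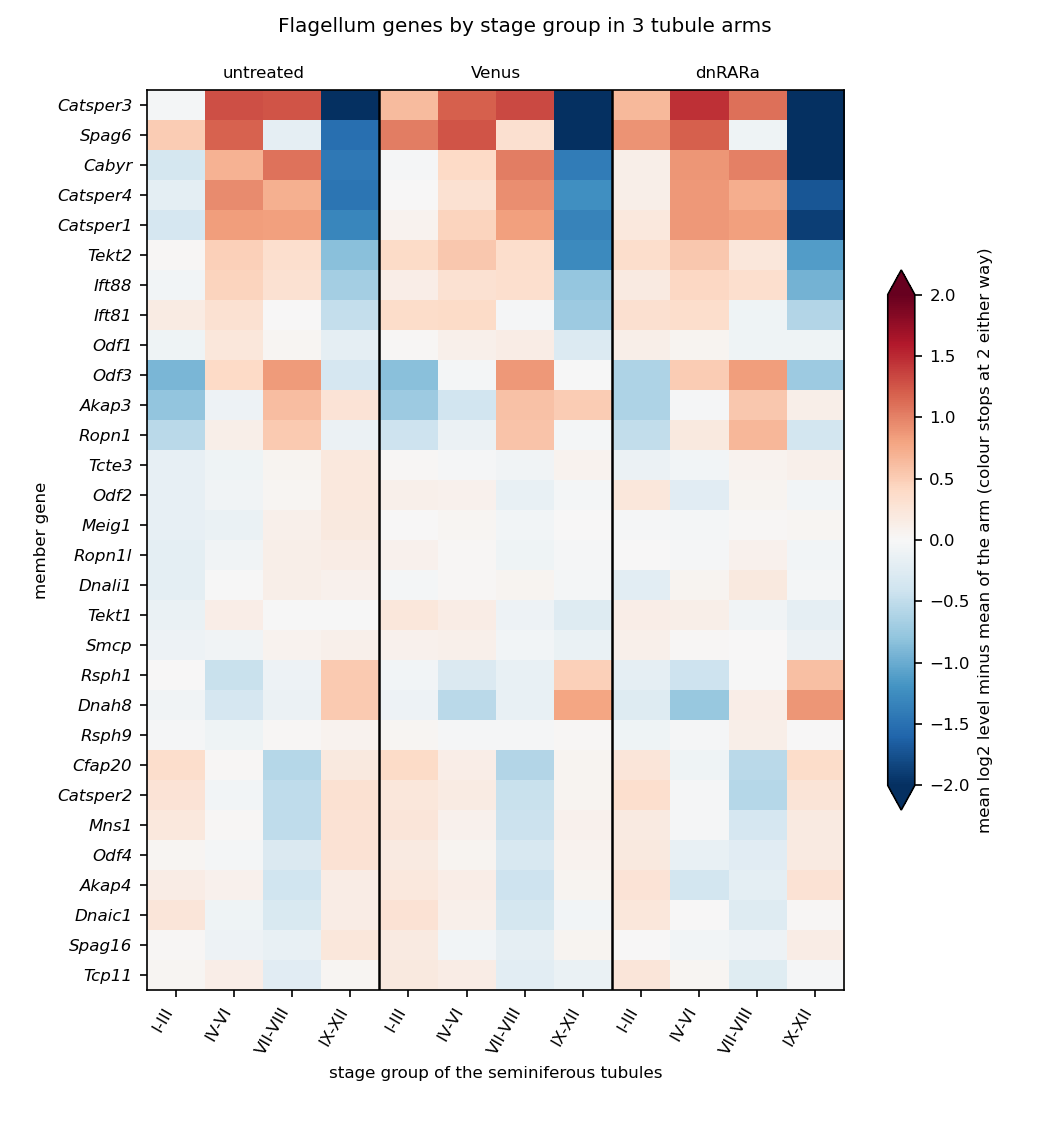
Mean log2 level of each of the 30 members in the 12 tubule groups, after subtracting the member's mean over the 4 stage groups of the same arm. Rows are ordered by the stage group in which the untreated level was lowest, columns are stage groups within the untreated, Venus and dnRARa arms, and the colour scale stops at 2 either way. Catsper3, Spag6, Cabyr, Catsper4, Catsper1, Tekt2, Ift88 and Ift81 are lowest in stages IX-XII in each arm; Cfap20, Catsper2 and Mns1 are lowest in stages VII-VIII in each arm.

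The pore of CatSper, the channel that lets calcium into the tail for hyperactivated swimming, is made of 4 different subunits, and the genes for 3 of them shared a stage pattern. Catsper3 stood at 2.58 and 2.54 in stages I-III, 3.87 and 3.91 in IV-VI, 4 and 3.72 in VII-VIII, and 1.18 and -1.02 in IX-XII of untreated tubules. The IX-XII arrays were below all 6 others although they lay far apart from each other. Its range over the stage groups was 3.81, or 14-fold (limma F-test, adjusted p = 1.23e-05), and 2.71 without the second IX-XII array. Catsper4 read 1.57 and 1.60, 2.78 and 2.67, 2.72 and 2.24, and 0.82 and -0.17 in the same order, a range of 2.40 (limma adjusted p = 3.91e-06). Catsper1 read 2.41 and 2.27, 3.66 and 3.36, 3.60 and 3.40, and 2.03 and 0.71, a range of 2.14 (limma adjusted p = 3.21e-05). In both genes stages IV-VI and VII-VIII were high and overlapped, and IX-XII was low.

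Catsper2 ran the other way. It stood at 5.50 and 5.58 in I-III, 5.21 and 5.20 in IV-VI, 4.86 and 4.66 in VII-VIII, and 5.44 and 5.72 in IX-XII, a range of 0.82 (limma F-test, adjusted p = 0.00256). Its lowest arrays were those of VII-VIII, where Catsper3 and Catsper4 were near their highest, and its IX-XII arrays overlapped those of I-III.

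Among the genes of the central apparatus and radial spokes, which regulate the dyneins, Spag6 was the most stage-dependent. Spag6 encodes an armadillo-repeat protein of the central pair. It stood at 3.84 and 4 in I-III, 4.57 and 4.62 in IV-VI, 3.36 and 3.08 in VII-VIII, and 2.55 and 1.23 in IX-XII, a range of 2.70 or 6.5-fold (limma F-test, adjusted p = 2.1e-05). The arrays of the 4 stage groups did not overlap. The near-identical gene Spag6l read 4.55 and 4.52, 3.78 and 3.52, 3.56 and 3.71, and 4.94 and 4.9 in the same order, highest where Spag6 was lowest. Whether the Spag6 probe also reads Spag6l transcripts was not tested.

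Rsph1, a radial spoke head protein, had its highest arrays in IX-XII (5.62 and 5.72) and its lowest in IV-VI (4.78 and 4.61), with 5.23 and 5.09 in I-III and 5.06 and 5.04 in VII-VIII. Its range was 0.97 (limma F-test, adjusted p = 0.000683). Cfap20, which joins the tubules of a doublet at the inner junction, was low in VII-VIII only, at 2.95 and 2.93, against 3.33 to 3.90 on the 6 other arrays (limma F-test, adjusted p = 0.000143). Spag16, a further central pair protein, had a range of 0.38 (limma F-test, adjusted p = 0.0304), and Rsph9, a second spoke head protein, a range of 0.15 that was not called.

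In the lumen of the doublets, Tekt2, a tektin, stood at 5.84 and 5.84, 6.27 and 6.28, 6.23 and 6.06, and 4.98 and 4.95 from I-III to IX-XII. The IX-XII arrays lay below all others, and the range was 1.31 or 2.48-fold (limma F-test, adjusted p = 5.7e-07). Mns1, a microtubule inner protein, read 6.22 and 6.25, 6.05 and 6.04, 5.53 and 5.51, and 6.11 and 6.53, lowest in VII-VIII, with a range of 0.80 (limma adjusted p = 0.000158). Tekt1 stayed between 6.65 and 6.99 on all 8 arrays, and its range of 0.27 was not called.

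The dynein arms move the axoneme. Dnah8, a heavy chain of the outer arm, stood at 6.95 and 7.01, 6.71 and 6.70, 6.92 and 6.94, and 7.37 and 7.79 from I-III to IX-XII, a range of 0.87 (limma F-test, adjusted p = 0.00859), with the IX-XII arrays above all others. Without the second IX-XII array the range was 0.67 and not called (limma adjusted p = 0.114). Dnaic1, an intermediate chain, had a range of 0.54 and was lowest in VII-VIII (2.30 and 2.14). Dnali1 and Tcte3, a light intermediate chain and a light chain, had ranges of 0.31 and 0.38 that were not called.

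The outer dense fibres and the fibrous sheath stiffen the tail and hold signalling and glycolytic enzymes. Odf3, an outer dense fibre gene, rose step by step from 4.35 and 3.90 in I-III over 5.44 and 5.47 in IV-VI to 5.97 and 5.81 in VII-VIII, and fell to 4.78 and 4.64 in IX-XII. No stage group overlapped another, and the range was 1.76 or 3.40-fold (limma F-test, adjusted p = 1.9e-06). Ropn1, which binds the sheath's kinase anchors, followed the same order with 5.47 and 5.07, 6.00 and 5.86, 6.33 and 6.35, and 5.74 and 5.67, a range of 1.07 (limma adjusted p = 1.9e-05). Akap3, a kinase anchor, was also lowest in I-III (2.77 and 1.88) and highest in VII-VIII (3.81 and 3.64), but its duplicates lay up to 1 apart and its stage groups overlapped (range 1.40, limma adjusted p = 0.00667). Without the second I-III array its range of 0.95 was not called (limma adjusted p = 0.0621).

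Cabyr, a calcium-binding protein of the sheath, stood at 3.90 and 3.70, 4.96 and 4.76, 5.35 and 5.15, and 3.44 and 1.99, a range of 2.53 or 5.78-fold (limma F-test, adjusted p = 1.96e-05). Like Catsper1, Catsper3 and Catsper4 it was highest in the middle groups and lowest in IX-XII. Akap4, the main anchor of the sheath, had a smaller range of 0.55 and was lowest in VII-VIII (4.49 and 4.32). Odf4 was also lowest there (6.07 and 6.00, range 0.57), while Odf1, Odf2 and Ropn1l had ranges of 0.40, 0.37 and 0.34 that were not called.

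Smcp, a cysteine-rich protein of the mitochondrial sheath, lay between 6.52 and 7.07 on all 8 untreated arrays, and its range of 0.21 was not called. Of the assembly and transport genes, the intraflagellar transport gene Ift88 stood at 2.04 and 1.93, 2.58 and 2.38, 2.35 and 2.36, and 1.60 and 1.11, a range of 1.12 (limma F-test, adjusted p = 7.5e-05). Its partner Ift81 had the same highest and lowest group with a range of 0.79 (limma adjusted p = 0.00272), although its second, dimmer probe had a range of 0.26. Meig1, needed to carry cargo along the spermatid manchette, and Tcp11, a testis gene needed for sperm motility, had ranges of 0.35 and 0.36 that were not called in untreated tubules.

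**Figure D2:**
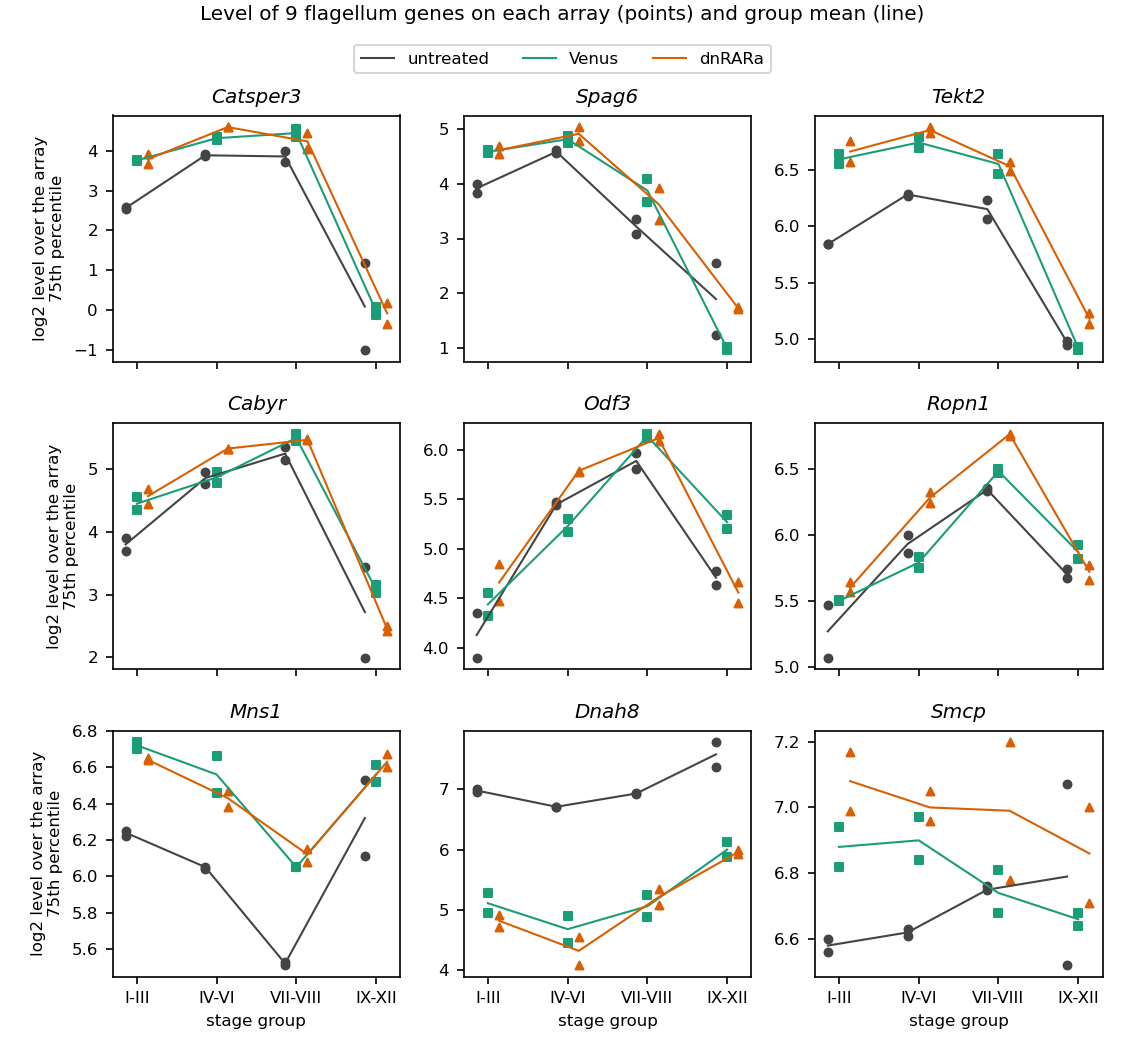
Level of 9 members over the 4 stage groups, as log2 signal over the array's 75th percentile. Each point is 1 array (2 per group), lines join group means, and colours are the untreated, Venus and dnRARa arms. Catsper3, Spag6, Tekt2 and Cabyr are lowest in IX-XII in each arm, Odf3 and Ropn1 are highest in VII-VIII in each arm, Mns1 is lowest in VII-VIII in each arm, and Dnah8 is 1.83 lower in Venus than in untreated tubules over the stages.

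The untreated groups were then followed step by step. From I-III to IV-VI 8 members rose and 0 fell, beside 20.3% of all genes called in either direction (11% up, 9.23% down), and the median member difference was 0.11 against 0.02 for all genes. They were Odf3 (1.33, SE 0.16, limma adjusted p = 0.000396), Ropn1 (0.66, SE 0.12, limma adjusted p = 0.00209), Catsper3 (1.33, SE 0.45, limma adjusted p = 0.0495), Catsper1, Catsper4, Cabyr, Tekt2 and Ift88. Without the second I-III array or without the second IV-VI array 4 were called. Catsper3, Cabyr and Ift88 lost their calls without any 1 of the 4 arrays (at 1.31 to 1.35, 0.97 to 1.17 and 0.39 to 0.59), and Catsper1 without the second I-III (1.10) or the first IV-VI array (1.02). The I-III and IV-VI arrays lay on different slides, so slide and stage cannot be told apart in this step.

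From IV-VI to VII-VIII 2 members rose, Odf3 by 0.44 and Ropn1 by 0.41, and 5 fell, beside 41% of all genes called (21.4% up, 19.7% down). The falls were Spag6 by 1.38 (SE 0.31, limma adjusted p = 0.00242), Cfap20 by 0.60, Mns1 by 0.53, Akap4 by 0.48 and Tcp11 by 0.36. The median member difference was -0.04 against 0.03 for all genes. Without the second VII-VIII array 3 were called and without the first IV-VI array 4. The Odf3 rise lost its call without any 1 of the 4 arrays (0.36 to 0.51), the Ropn1 rise without the second IV-VI (0.35) or the second VII-VIII array (0.41), the Akap4 fall without 3 of the 4 and the Tcp11 fall without 2. Slide again cannot be told apart from stage.

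The step from VII-VIII to IX-XII, across sperm release, moved most members, and its 4 arrays shared 1 slide. Here 10 members fell and 9 rose, beside 48.6% of all genes called (24.7% up, 23.9% down), with a median member difference of 0.03 against 0.01 for all genes. The falls were Catsper3 by 3.78 (SE 0.45, limma adjusted p = 1.03e-05), Cabyr by 2.53 (SE 0.30, limma adjusted p = 1.06e-05), Catsper4 by 2.15, Catsper1 by 2.13, Spag6 by 1.32, Tekt2 and Odf3 by 1.18, Ift88 by 1.00, Ropn1 by 0.64 and Ift81 by 0.49. The rises were Catsper2 (0.82), Mns1 (0.80, SE 0.12, limma adjusted p = 8.08e-05), Cfap20 (0.76), Dnah8 (0.65), Rsph1 (0.62), Odf4 (0.57), Akap4 (0.55), Dnaic1 (0.45) and Spag16 (0.38). The second IX-XII array was the lower of the pair in all 10 genes that fell. Among those that rose it was the higher for Catsper2, Mns1, Dnah8, Rsph1, Odf4 and Spag16, and the lower for Cfap20, Akap4 and Dnaic1. This array had a 75th percentile of 10.15 on the log2 scale, against 11.01 on its duplicate, and 54.89% of its spots were well above background. Without it the differences were -2.68 for Catsper3, -1.81 for Cabyr, -1.66 for Catsper4, -0.66 for Spag6 and 0.44 for Dnah8, which was then not called (limma adjusted p = 0.148). Nor was Dnah8 called without the first (0.64) or the second VII-VIII array (0.66).

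Back from IX-XII to I-III, 8 members were higher in I-III and 5 lower, beside 33.3% of all genes called (14% up, 19.2% down), with a median of -0.09 for the members and for all genes. Catsper3 was 2.48 higher (SE 0.45, limma adjusted p = 0.000981) and Spag6 2.03 higher (SE 0.31, limma adjusted p = 0.00032), while Akap3 was 1.06 lower (SE 0.31, limma adjusted p = 0.0188). Leaving out 1 array gave 1.38 to 3.58 for Catsper3, always called. Akap3 ran from -1.56 to -0.55 and lost its call without the second I-III array (-0.61) or the first IX-XII array (-0.55). The count was 7 without the second I-III array and 8 without the second IX-XII array. Slide and stage cannot be told apart in this step either, as the I-III and IX-XII arrays lay on different slides.

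Markers of spermatids moved over the same groups. Of 14 spermatid markers 12 changed with stage in untreated tubules, beside 68% of all genes tested. The summed signal of the 14, relative to the array's 75th percentile on the linear scale, was 884 to 892 in I-III and 704 to 770 in IV-VI. It was 886 to 955 in VII-VIII and 1000 to 1340 in IX-XII. Genes of the acrosome and of fertilisation among them were, like 3 CatSper genes, lowest in IX-XII: from VII-VIII to IX-XII the mean level of Spaca1 went from 5.62 to 2.37, of Izumo1 from 2.18 to -1.55 and of Acrv1 from 3.93 to 0.71. Spam1 had its lowest mean in IX-XII too, at 0.35. Genes for the proteins that pack sperm DNA were highest there instead, with means going from 5.78 to 6.93 for Tnp2 and from 7.40 to 8.25 for Prm1 (named after their values were seen). Their part in the flagellar pattern was not tested.

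In tubules that had received a virus, the lowest stage group of a member was often the same as in untreated tubules, and the highest less often. In Venus tubules 20 members changed with stage, beside 53.8% of all genes, and in dnRARa tubules 20, beside 55%. Of the 14 spermatid markers 9 and 13 changed with stage in these arms. Of the 30 members 19 were called in all 3 arms, 2 in 1 or 2 arms (Spag16 in untreated, Tcp11 in Venus and dnRARa) and 9 in none. Of the 19, 17 had the same lowest stage group in all 3 arms, and 10 the same highest one. Picking members called in every arm favours such agreement. Over all 30 members the lowest group was the same in 20 and the highest in 12. Such agreement was not counted over all genes. The 8 genes lowest in IX-XII throughout were Catsper1, Catsper3, Catsper4, Spag6, Tekt2, Cabyr, Ift88 and Ift81. Those lowest in VII-VIII throughout were Catsper2, Cfap20, Mns1, Odf4 and Dnaic1, those lowest in IV-VI were Dnah8 and Rsph1, and those lowest in I-III were Akap3 and Ropn1. The exceptions were Akap4 and Odf3.

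Catsper3 may stand for the first set. It read 3.75 and 3.78, 4.36 and 4.28, 4.36 and 4.54, and -0.12 and 0.06 from I-III to IX-XII in Venus tubules, and 3.67 and 3.92, 4.60 and 4.61, 4.45 and 4.04, and -0.36 and 0.18 in dnRARa tubules. In both arms the IX-XII arrays were far below all others, with ranges of 4.48 (limma F-test, adjusted p = 2.7e-06) and 4.69 (limma adjusted p = 2.17e-06). Spag6 read 4.63 and 4.56, 4.88 and 4.75, 3.66 and 4.10, and 0.95 and 1.01 with Venus, a range of 3.84, and 4.55 and 4.69, 5.05 and 4.79, 3.92 and 3.34, and 1.70 and 1.74 with dnRARa, a range of 3.20. Each virus slide held all 4 stage groups of 1 arm, so the groups could be ordered within a slide. Of the 20 members called in Venus all 20 had the same lowest group on both slides, and of the 20 called in dnRARa 17 did. Among members not called it was the same in 5 of 10 in Venus and 6 of 10 in dnRARa. The calls rest on these same arrays, so agreement among called members was favoured in advance. The highest group was the same on both slides in 13 of 20 in each arm.

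Few flagellum genes differed between the dominant negative receptor and its control virus. Averaged over the 4 stage groups, 1 of 30 members differed between dnRARa and Venus tubules, beside 12.2% of all genes (8.11% up, 4.05% down). The median member difference was 0.09 against 0.01 for all genes, and 7 members had an unadjusted p under 0.05. That member was Tcte3, the outer-arm light chain. It stood at 6.08 and 6.13, 6.21 and 5.92, 6.01 and 6.01, and 6.18 and 6.13 with Venus, and at 6.18 and 6.63, 6.26 and 6.69, 6.30 and 6.90, and 6.27 and 6.97 with dnRARa, a difference of 0.44 (SE 0.12, 95% interval 0.18 to 0.70, limma adjusted p = 0.0303). The dnRARa array was the higher in all 4 stage groups on both scan days, but by a mean of 0.13 on the earlier day and 0.75 on the later one. The call held without the first Venus IV-VI array and without any first dnRARa array. Without any one of the other arrays it was lost, with differences of 0.35 to 0.45 and limma adjusted p of 0.0554 to 0.0857.

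**Figure D3:**
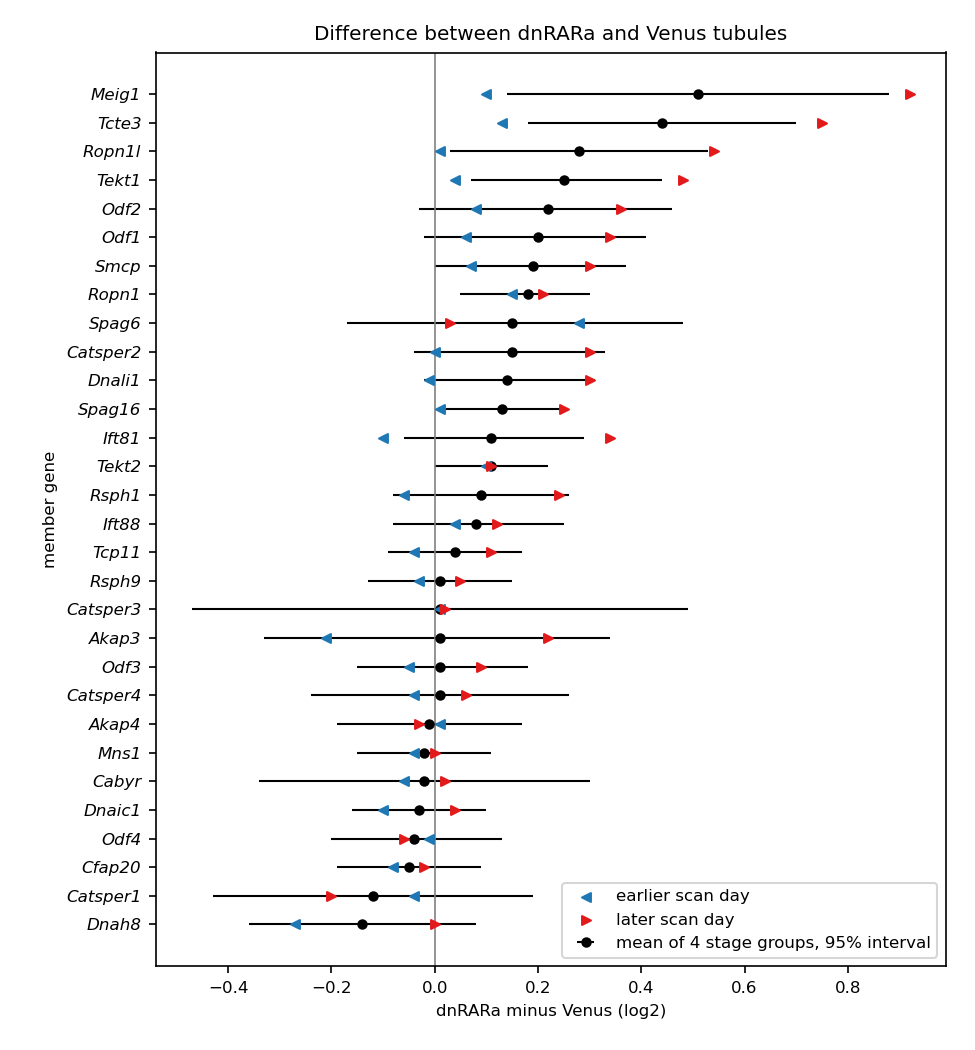
Difference in log2 level between dnRARa and Venus tubules for each of the 30 members, averaged over the 4 stage groups. Black points are the fitted differences with their 95% intervals, and triangles are the means of the 4 stage differences on the earlier and on the later scan day. The Tcte3 interval runs from 0.18 to 0.70; for Meig1, Tcte3, Ropn1l and Tekt1 the later-day value is well to the right of the earlier-day one.

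A split by scan day was also seen in members that were not called. Meig1 had the largest fitted difference, 0.51 (SE 0.17, 95% interval 0.14 to 0.88, limma adjusted p = 0.0698), with 0.10 on the earlier day and 0.92 on the later. Ropn1l had 0.01 and 0.54, and Tekt1 0.04 and 0.48. On the earlier day alone 0 members were called, on the later day alone 3. The share of all genes called on each day is not given here, so these counts cannot be set against it. Each arm and day had a slide of its own, so a slide of the later day and the virus cannot be told apart for these genes.

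For the most stage-dependent genes the mean over stages differed little between the arms, within wide intervals. The difference over stages was 0.01 for Catsper3 (95% interval -0.47 to 0.49), 0.15 for Spag6 (-0.17 to 0.48), -0.02 for Cabyr (-0.34 to 0.30), 0.11 for Tekt2 (0.00 to 0.22) and -0.12 for Catsper1 (-0.43 to 0.19). A doubling or halving of the mean over stages lies outside these intervals. For Akap4 the interval was -0.19 to 0.17 and for Mns1 -0.15 to 0.11. These means cover differences of opposite sign in single stage groups, none of them called. In IX-XII, where the arrays of the arms did not overlap, dnRARa minus Venus was 0.74 for Spag6 (95% interval 0.08 to 1.40, limma adjusted p = 0.22), -0.63 for Cabyr (-1.27 to 0.01, limma adjusted p = 0.294), -0.67 for Catsper1 (-1.28 to -0.05, limma adjusted p = 0.24) and 0.26 for Tekt2 (0.05 to 0.48, limma adjusted p = 0.182). In IV-VI it was 0.45 for Cabyr (-0.19 to 1.10) and 0.58 for Catsper4 (0.07 to 1.09, limma adjusted p = 0.214).

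The arms were also compared within single stage groups. In I-III 0 members were called, beside 0.00896% of all genes, and in VII-VIII 0, beside 1.48% (0.688% up, 0.788% down). In VII-VIII Tcte3 was 0.59 higher (SE 0.25, limma adjusted p = 0.344) and Ropn1 0.27 higher (SE 0.12, limma adjusted p = 0.362). Unadjusted p-values under 0.05 were found for 0 members in I-III and for these 2 in VII-VIII.

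In IV-VI 1 member was called, beside 3.15% of all genes (1.4% up, 1.75% down). Ropn1 stood at 5.83 and 5.75 with Venus and at 6.24 and 6.32 with dnRARa, without overlap, a rise of 0.49 (SE 0.12, 95% interval 0.24 to 0.74, limma adjusted p = 0.0381). The difference was 0.41 on the earlier and 0.57 on the later day. The call was lost without any one of these 4 arrays (0.45 to 0.53, limma adjusted p 0.0759 to 0.377). Odf3 was 0.56 higher in the same tubules (5.30 and 5.17 against 5.78 and 5.79) but was not called (SE 0.16, limma adjusted p = 0.0746). The summed spermatid marker signal in IV-VI was 903 to 1060 with Venus and 683 to 689 with dnRARa, but single markers moved both ways (named after their values were seen). From Venus to dnRARa the mean log2 level went from 7.93 to 6.43 for Prm1, 7.79 to 6.22 for Tnp1 and 5.74 to 3.14 for Tnp2. Prm3 and Tssk6 were also lower. Higher with dnRARa were Prm2, Acrv1, Spaca1, Acr, Spam1, Izumo1, Crem, Tssk1 and Tssk2. The part of spermatid content in the Ropn1 and Odf3 differences was not tested.

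In IX-XII 1 member was called, beside 4.5% of all genes (3.03% up, 1.47% down). Odf3 stood at 5.34 and 5.20 with Venus and at 4.67 and 4.45 with dnRARa, a fall of 0.71 on the log2 scale (SE 0.16, 95% interval -1.04 to -0.37, limma adjusted p = 0.0193). The fall was 0.66 on the earlier day and 0.75 on the later day. The call was lost without the first Venus array (-0.64), the second Venus array (-0.77) or the second dnRARa array (-0.59). The untreated IX-XII arrays of Odf3, at 4.78 and 4.64, lay nearer to dnRARa than to Venus. Spermatid marker sums were 1090 to 1200 with Venus and 1090 to 1510 with dnRARa.

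Whether the effect of dnRARa differed between stages was tested as an interaction. It called 0 of 30 members, beside 0.742% of all genes. By limma, Odf3 came nearest (F = 11.6, unadjusted p = 0.000421, adjusted p = 0.0532), followed by Ropn1 (unadjusted p = 0.0113, adjusted p = 0.251), Akap4 (unadjusted p = 0.0255) and Catsper4 (unadjusted p = 0.0394). For Odf3 the differences were 0.22 in I-III, 0.56 in IV-VI, -0.02 in VII-VIII and -0.71 in IX-XII. Without the first dnRARa I-III array this interaction was called (limma adjusted p = 0.0359).

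The control virus itself went with larger shifts. Between Venus and untreated tubules 12 members were higher and 5 lower, beside 66.9% of all genes (36.6% up, 30.3% down), with a median of 0.13 for the members and 0.06 for all genes. Dnah8 was lower on all 8 Venus arrays, which ran from 4.45 to 6.12 against 6.70 to 7.79 untreated, a difference of -1.83 (SE 0.10, limma adjusted p = 1.76e-09). Tcte3, Ift81, Odf1 and Rsph1 were the others that were lower (Odf1 only with its brighter probe, 0.07 with the mean of its probes), and Akap3 (0.71), Catsper4 (0.57) and Catsper3 (0.53) were among those higher, the last called in only 2 of the 16 fits that left out 1 array (0.26 to 0.80). These arms were scanned on different days, so virus and day cannot be told apart, and the same Venus arrays enter the comparison with dnRARa.

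Flagellum genes were detected in sorted Sertoli cells, at lower levels than in testes. All 30 members were well above background in whole testes and on both arrays of sorted WT cells. Between the sorted cells and the testes 29 of 30 were called lower, beside 79% of all genes called (38.9% up, 40.1% down). The median member difference was -2.84 against -0.03 for all genes. The differences ran from -1.41 for Cfap20 to -4.31 for Dnah8 (SE 0.18, limma adjusted p = 2.54e-06). Spag16 was 2.91 lower (SE 1.27) and not called (limma adjusted p = 0.0699), at 1.88 and 1.44 in sorted WT cells against 4.56 and 4.59 in testes. Its SE also takes in the spread of the N3KO arrays of the same fit, at -3.05 and -7.68. The spermatid markers fell alongside, from a summed signal of 2180 to 2360 in testes to 463 to 727 in sorted WT cells, and the spermatocyte markers from 343 to 359 to 29.1 to 36.9. The Sertoli marker sum was 36.4 on the first WT array and 262 on the second, but these sums did not cover the same markers. Clu stood at a mean of 7.73 in sorted WT cells. That is too bright for the first sum, so Clu had no value on that array. These sums therefore do not show whether the duplicates differ in Sertoli cell content. Leydig cell markers summed to 196 to 200 in testes, 1820 to 1920 in sorted WT cells and 730 to 1100 in N3KO cells, and their part was not tested.

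Nanos3 is needed to keep primordial germ cells alive, and N3KO Sertoli cells were low in most flagellum genes. Of 30 members 29 were lower in N3KO than in WT sorted cells, beside 49.9% of all genes called and 21.4% lower, with a median member difference of -6.69 against 0.13 for all genes. Smcp stood at 5.46 and 4.96 in WT and at -5.97 and -7.29 in N3KO cells, where it was not well above background: it was at least 1710-fold lower (limma adjusted p = 1.65e-06). Such a bound divides the bright group's mean by the dimmest signal that still passed as above background on the other arrays. Dnah8 was at least 580-fold lower, Ropn1 at least 489-fold, Tcp11 at least 422-fold and Akap4 at least 226-fold. On both N3KO arrays 19 members were above background, on 1 array 2, and on none 9, while 55% of all genes were above it on both. The 14 spermatid markers summed to 1.91 to 1.99 there, with 7 of them above background, and N3KO arrays had a slide of their own, so slide and genotype cannot be told apart.

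A few members kept a level in N3KO cells. Cfap20 stood at 2.30 and 1.81 in N3KO and at 2.16 and 1.96 in WT cells, overlapping, a difference of 0.00 (SE 0.17, 95% interval -0.42 to 0.41). Ift88 was at -0.62 and -0.61 against 0.13 and -0.06, a fall of 0.65, and next came Rsph9 (-2.09), Ift81 (-2.35), Catsper2 (-2.64), Mns1 (-2.67) and Dnaic1 (-2.81). Cfap20, Ift88 and Ift81 encode proteins that ordinary cilia use as well, while Catsper2 encodes a subunit of the sperm channel. Lower by more than 4 were 21 members, and 1523 of the 21477 genes tested. The members include Odf1, Odf4, Akap3, Akap4, Ropn1, Smcp, Catsper1, Catsper3 and Catsper4. Genes of the axoneme itself are also among them, such as Tekt1 (-8.92), Dnali1 (-7.79), Tekt2 and Spag6. Array scaling matters for the small differences: with arrays scaled on their median, Cfap20 was 0.56 higher and Ift88 0.09 lower, with the median of all genes at 0.689.

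**Figure D4:**
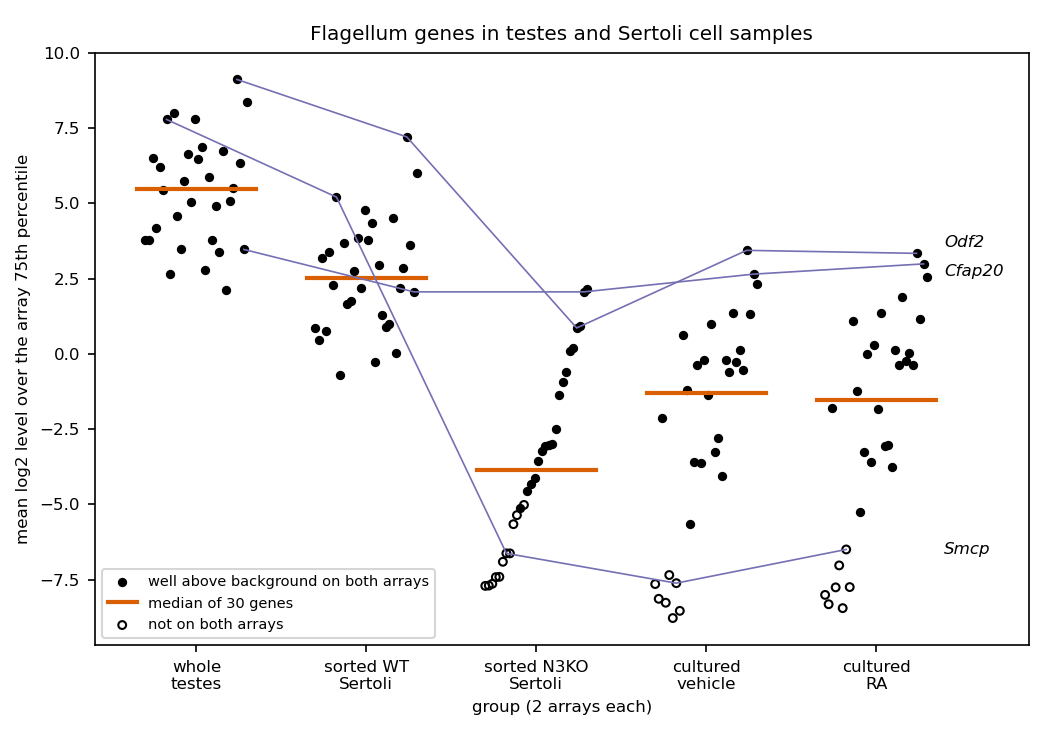
Mean log2 level of the 30 members in whole testes and in 4 kinds of Sertoli cell sample (2 arrays each), relative to the array's 75th percentile. Filled points were well above background on both arrays, open points were not, orange bars are the medians over the 30 genes, and lines follow Odf2, Cfap20 and Smcp. The medians are 5.49 in testes, 2.53 in sorted WT, -3.85 in N3KO, -1.29 in vehicle and -1.52 in RA cultures.

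Cultured Sertoli cells were also low in flagellum genes, with 23 of 30 members above background, beside 59.4% of all genes in vehicle cultures. Against sorted WT cells 28 were lower and 1 higher, beside 74.6% of all genes called (32.8% up, 41.8% down), and the median member difference was -4.61 against -0.17 for all genes. Smcp was at least 3390-fold lower, Ropn1 at least 973-fold and Akap4 at least 450-fold. Cfap20 was the member that was higher, at 2.66 and 2.64 against 2.16 and 1.96 (0.59, SE 0.17, limma adjusted p = 0.0176), with 0.44 under quantile and 1.52 under median scaling. Ift88 was 0.30 lower (limma adjusted p = 0.0353) but 0.63 higher when arrays were scaled on their median, where all genes had a median of 0.755. Some members were brighter in culture than in N3KO cells: Dnah8 read 0.55 and 0.72 against -5.60 and -5.73, and Tcp11 -2.26 and -2 against -7.99 and -7.29. In 11 members the culture mean was more than 1 above the N3KO mean, while the spermatid marker sum was 1.79 to 1.87 in culture and the spermatocyte sum 16.1 to 16.6 against 3.66 to 4.82. The part of remaining germ cells in this was not tested, and the cultures had a slide and scan day of their own.

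Retinoic acid changed no member in culture at this threshold. Of the 23 that could be tested 0 were called by limma, beside 4.78% of all genes (3.12% up, 1.65% down), and 2 had an unadjusted p under 0.05: Tekt2, at -1.39 and -1.36 with vehicle and -1.78 and -1.86 with RA (difference -0.44, 95% interval -0.82 to -0.07, limma adjusted p = 0.212), and Dnah8, at 0.55 and 0.72 against 1.27 and 0.91 (0.45, 95% interval 0.01 to 0.89, limma adjusted p = 0.284). The vehicle and RA arrays of these 2 genes did not overlap. Tekt1 was 0.49 higher (95% interval -0.03 to 1.02) and Spag6 0.39 higher (-0.05 to 0.83). The median member difference was 0.25 against 0.00 for all genes.

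Other flagellum genes, from a further list of 92 of which 59 had a probe, gave the same kind of picture in the tubules. In untreated tubules 44 of 58 tested changed with stage, beside 68% of all genes, and among these 18 were lowest in VII-VIII, 12 in IX-XII, 10 in IV-VI and 4 in I-III. The smallest adjusted p-values were those of Efhc2, Traf3ip1, Tssk4 and Dnal1. The calcium-binding protein Efhc2 had means of 0.99, 1.88, 2.94 and 0.21 from I-III to IX-XII, and the sperm kinase Tssk4 of 3.97, 4.60, 4.49 and 2.57, both lowest in IX-XII like Catsper1, Catsper3 and Catsper4. The transport protein Traf3ip1 went from -0.33 in IV-VI to -2.12 in IX-XII, and the dynein light chain Dnal1 was lowest in VII-VIII (0.70) and highest in I-III (2.79). Between dnRARa and Venus over stages 4 of the 58 were higher and 1 lower, beside 12.2% of all genes called. Between N3KO and WT sorted cells 47 of 57 were lower and 0 higher, beside 49.9% of all genes called. RA in culture called 0 of 49 by limma, beside 4.78% of all genes, with 4 at an unadjusted p under 0.05.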

How the data were processed

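The members and the gene lists were chosen with earlier results of these data known. Per the file headers, the deposited intensity is the processed green signal of a one-colour Agilent array, background-subtracted and detrended with Feature Extraction 9.5.3.1 (9.5 in the submitters' processing notes); the 0 and 1 marks for spots well above background, outliers and saturation are also as deposited. The series' deposited value table held the same intensity at every spot.

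Control spots (1639 of 45018) and outlier spots (32 to 274 per array) were left out, each array was scaled to its 75th percentile, log2 was taken and the spots of a probe were averaged. Probes were named through RefSeq by accession (22951) or symbol (67), 18156 stayed unnamed, and a gene took its probe with the highest mean signal, which for 7 members was 1 of 2 probes. To be tested, a gene's probe had to exceed background clearly on each of the 2 arrays in 1 or more of the groups compared. limma 3.58.1 in R 4.3.3 fitted the 24 tubule arrays (12 groups, 12 residual degrees of freedom) and the 10 other arrays (5 groups, 5 residual degrees of freedom) separately, with Benjamini-Hochberg adjustment within each of 18 comparisons at 0.05. The code was tested on simulated data. The labels call the samples biological duplicates but do not say how they were separated. Genes were named by role: full statistics for members past the threshold with the largest differences, up to 2 per role and 10 in all, or otherwise the 4 with the smallest p; outside the members, Nanos3, Rara and Stra8 and up to 4 per list with the smallest adjusted p, with Spag6l added after its values were seen. Values on single arrays and other members are descriptive. Alternatives were other scalings and backgrounds, filters, probe rules, model sizes, blocks and leaving out each array.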

Additional observations from a re-analysis of the deposited data

How the results depend on the processing

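The 37 genes without 7 matched probes, 2 arrays a group and the slides set the limits here. Counts of called members that moved by more than 1.5 times were as follows. For dnRARa against Venus over stages, 0 were called with median scaling, 0 with normexp background and 0 at a 2-fold minimum, 3 with only the arrays compared, 4 with an intensity trend, 2 with scan day as a term, 0 on the earlier day alone and 3 on the later day alone (these 3 chosen after seeing the data). In IV-VI the count was 0 with quantile or median scaling, normexp, no detection filter, only the arrays compared, the 2-fold minimum or 1 model for all arrays, and 2 with the trend; in IX-XII it was 0 with normexp or the 2-fold minimum. The test of dnRARa by stage called 1 with quantile scaling, genes detected on every array, the trend, or slide or scan day as a random block, and 3 with only the arrays compared. With a 2-fold minimum the stage counts were 10 untreated, 11 Venus and 12 dnRARa, the untreated steps 5, 1, 7 and 5 from I-III to IV-VI onward, and Venus against untreated 1. With only the arrays compared the untreated steps called 0, 2, 8 and 0, and RA called 4. From IV-VI to VII-VIII 4 were called with no detection filter and 4 with 1 model, which called 1 for RA. N3KO against WT called 18 of the 19 members detected on every array.

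With the replicate number as a block, dnRARa against Venus called 3 over stages and 1 by stage. For each gene the difference between the 2 samples of a group was taken and correlated between groups. Between Venus and dnRARa groups, over all 16 pairs of stage groups, these differences correlated by -0.05 to 0.15. In both virus arms the replicate number is also the scan day. Whether the numbers pair the arms in any other way is not settled by these values. Between stage groups of the same arm, these differences between duplicates correlated by 0.20 to 0.44 (untreated), 0.09 to 0.32 (Venus) and 0.26 to 0.43 (dnRARa). They are not correlations of the arrays themselves. In the virus arms a number is also a slide. The stage tests called 20 members in each arm with this block, and 20 (untreated), 21 (Venus) and 20 (dnRARa) with slide as a random block.

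Leaving out 1 array at a time gave 17 to 21 (untreated stage), 16 to 20 (Venus stage), 16 to 20 (dnRARa stage), 4 to 6 (IV-VI minus I-III), 3 to 6 (VII-VIII minus IV-VI), 15 to 20 (IX-XII minus VII-VIII), 7 to 17 (I-III minus IX-XII), 0 to 4 (dnRARa over stages), 0 to 1 (by stage, IV-VI and IX-XII), 15 to 21 (Venus minus untreated), 29 (both sorted comparisons) and 27 to 28 (culture). In single genes, 2 values reversed, neither called in both settings: Spag6 with RA, -0.36 under normexp against 0.39, and Odf1 in Venus against untreated, 0.07 with the mean of detected probes against -0.40. No called member changed sign under another scaling except Ift88 in culture.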

Other observations

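Of 10 listed transcription factors of ciliogenesis and of the postmeiotic programme, 8 changed with stage in untreated tubules, beside 68% of all genes tested. Foxj1, a master regulator of motile cilia, had means of 3.70, 4.01, 0.80 and 1.62 from I-III to IX-XII (range 3.21, limma F-test, adjusted p = 8.75e-07). Rfx1 had 1.36, 2.01, -0.13 and -0.51 (range 2.52, limma adjusted p = 2.84e-07). Mybl1 was lowest in VII-VIII at -2.83, and Sox30 highest there at 2.29. Rfx2 had a range of 0.40 that was not called (limma adjusted p = 0.0863). Foxj1 was 0.63 higher in dnRARa than in Venus tubules over stages (SE 0.14, limma adjusted p = 0.0101). Its means with Venus were 3.65, 3.56, 0.99 and -0.75 from I-III to IX-XII, and with dnRARa 3.87, 3.67, 0.96 and 1.48, so the arms lay apart mainly in IX-XII, where the untreated mean was 1.62.

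Among the further flagellum genes, those that rose with dnRARa over stages were Spa17 (0.71, limma adjusted p = 0.00636), Lrrc6 (0.35, limma adjusted p = 0.0184), Ppp1cc (0.34, limma adjusted p = 0.0271) and Fsip1 (0.41, limma adjusted p = 0.0371), and Hook1, a manchette protein, fell by 0.29 (limma adjusted p = 0.0158). Naming all 5 was decided after their values were seen.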
